A study of Homo sapiens with 12 samples.

Results

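The genes described here are the WNT ligands, their receptors and co-receptors, the secreted antagonists, and the cytoplasmic, nuclear and feedback genes of the same pathway, in osteosarcoma cells exposed to NXP800. They were chosen by gene symbol (WNT, FZD, SFRP and DKK followed by a number, and 22 single symbols from *FRZB* to *SP5*). This gave 59 of the 43236 symbols in the count tables, and earlier results of these data were known when the symbols were chosen. Messenger RNA of MNNG/HOS cells (HOS-MNNG in the labels), a human osteosarcoma line obtained by chemical transformation of HOS, was sequenced in 12 libraries. All were from this single line, and they formed 4 groups of 3 replicates: the solvent DMSO for 6 h, NXP800 for 6 h, DMSO for 24 h and NXP800 for 24 h. NXP800 is a small molecule that came out of a search for inhibitors of the HSF1 heat shock pathway, and the methods of the study give its dose as 300 nM. The comparison addressed here is how the WNT genes responded to the compound at each time, and whether the response changed between 6 h and 24 h.

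WNT proteins are secreted lipid-modified ligands that bind Frizzled receptors (FZD). With LRP5 or LRP6 as co-receptor they stop the destruction complex of AXIN1 and APC from degrading β-catenin (*CTNNB1*), which then acts with TCF and LEF factors on target genes, while ROR and RYK receptors carry β-catenin-independent signals. SFRP, FRZB, WIF1 and DKK proteins block the ligands or the co-receptors outside the cell, and in bone the pathway is best known for driving osteoblast formation through LRP5.

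Counts on genes were between 30810614 and 31947656 per library, so depth was alike across libraries. What set the precision of single genes was not tested. Reads outside annotated genes made up 6.66 to 8.14% of a library at 6 h and 2.73 to 3.67% at 24 h. Time of exposure and any difference between the 2 sets of libraries cannot be told apart, so every treated group was set against the DMSO libraries of its own time. Nothing in the labels says that replicates came from separate cultures, so a p-value measures the spread between these samples. Of the markers of the line's origin, *VIM*, *COL1A1*, *SPARC*, *RUNX2* and *CDH2* were expressed, whereas the osteoblast genes *ALPL*, *SP7*, *IBSP* and *BGLAP* had at most 7 counts in any library and *COL1A2* at most 12. Under NXP800 the log2 fold changes at 6 h and 24 h were -0.79 and -2.02 for *SPARC*, -0.50 and -0.76 for *COL1A1*, and 0.71 and 0.36 for *RUNX2*, all called. *CDH2* was higher at 6 h only (0.84) and *VIM* lower at 24 h only (-0.48). Among markers of other cells, the epithelial gene *EPCAM* had 170 to 325 counts and rose by a log2 fold change of 0.81 at 24 h (edgeR, adjusted p = 4.85e-06), and its part in the WNT values was not tested. The endothelial gene *PECAM1* had 5 to 29 counts and gave -1.17 at 6 h (adjusted p = 0.0157), *CDH5* at most 7, and *CDH1*, *KRT20*, *PTPRC* and *CD3E* at most 5.

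Under NXP800 more WNT genes fell than rose. Falls over 2-fold at 6 h were in 4 of the 9 Frizzled receptors tested (*FZD1*, *FZD2*, *FZD4* and *FZD9*, the last on 7 to 25 counts). They were also in 1 of the 5 co-receptors (*LRP5*) and in *LGR4*, *TCF7L1* and *FRZB*. At 24 h these falls were in *FRZB*, *TCF7L1*, *LRP5*, *SFRP1*, *ROR1* and *LGR4*, and in none of the Frizzled receptors. Of the 59 genes, 40 had enough counts to be tested. After 6 h, 9 of them were higher and 17 lower at an adjusted p below 0.05 (edgeR quasi-likelihood test, Benjamini-Hochberg adjustment over all 15979 genes tested), and 14 were not called. Thus 65.0% were called, against 52.8% of all genes tested (25.0% higher and 27.8% lower). After 24 h, 6 were higher and 17 lower, which was 57.5% called against 56.0% of all genes (27.5% higher and 28.6% lower). With the replicate number as a block, 34 of the 40 were called at 6 h (85.0%, against 62.3% of all genes) and 32 at 24 h (80.0% against 65.2%). The median log2 fold change of the 40 genes was -0.28 at 6 h and -0.30 at 24 h, against -0.05 and -0.00 over all genes tested. Changes over 2-fold were all falls at 6 h, in 8 of 40 genes (20.0%, against 11.2% of all genes in either direction), and at 24 h they were 6 falls and 1 rise (17.5% against 14.0%). That rise was in *WNT10A*, which entered the test only through NXP800 at 24 h, where it is high, and without it 5 genes were higher at 24 h, 22 of 39 were called (56.4%) and 6 changed over 2-fold (15.4%). In all, 5 of the 40 were higher at both times (12.5%, against 16.5% of all genes), 13 were lower at both (32.5% against 18.5%), and 1, *DKK2*, was higher at 6 h and lower at 24 h, as were 1.10% of all genes. RNA levels in bulk libraries do not tell fewer expressing cells from less RNA per cell.

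**Figure D1:**
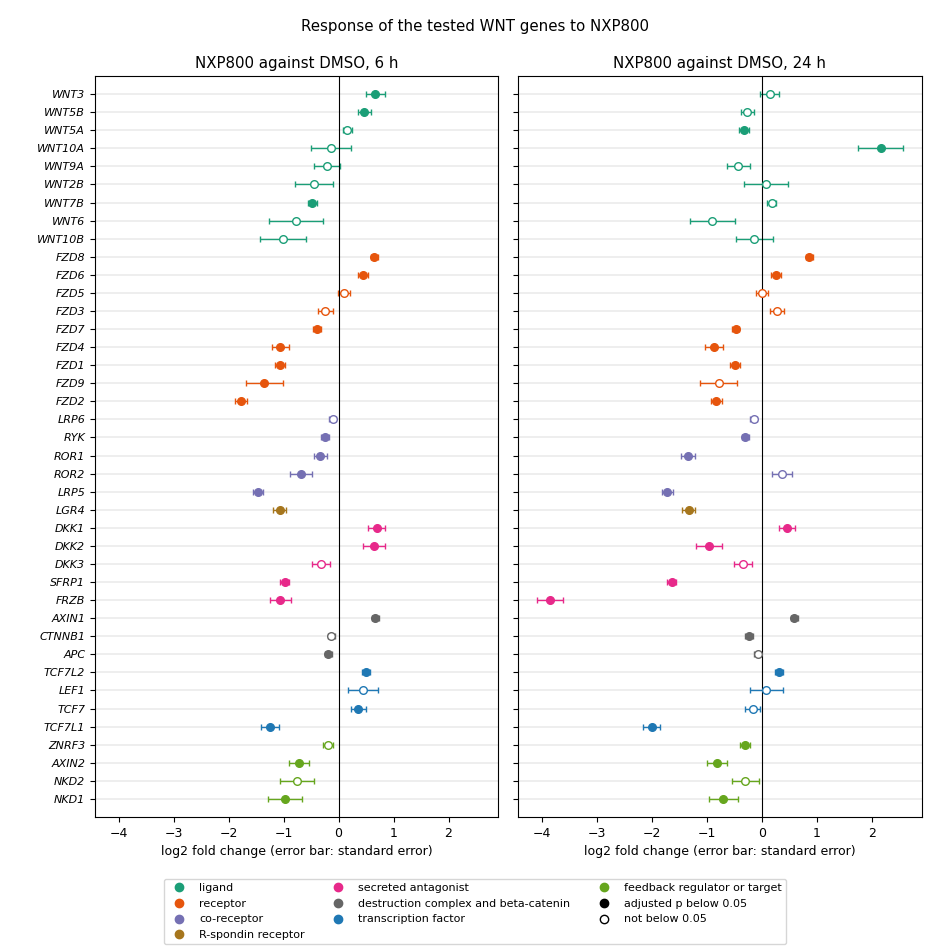
Log2 fold change of NXP800 against DMSO (x axis, with standard error) for the 40 tested WNT genes at 6 h (left) and 24 h (right), with colours for the role and filled points for an adjusted p below 0.05. *FZD2* has the lowest value at 6 h (-1.77) and *FRZB* at 24 h (-3.86), and *WNT10A* is the only gene with a rise over 2-fold, at 24 h.

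The 19 genes left out of the tests had at most 16 counts in any library. *DKK4* and *WNT1* had no count in any of the 12 libraries, and 13 of the 19 had 5 counts or fewer everywhere. They were 10 ligands (*WNT1*, *WNT2*, *WNT3A*, *WNT4*, *WNT7A*, *WNT8A*, *WNT8B*, *WNT9B*, *WNT11* and *WNT16*), the receptor *FZD10*, 5 antagonists (*SFRP2*, *SFRP4*, *SFRP5*, *WIF1* and *DKK4*), the R-spondin receptor *LGR5*, the E3 ligase *RNF43* and the target *SP5*. Without the filter on low counts 17 of the 19 could be fitted, and 3 of these were called at a time. *LGR5* had 7, 12 and 5 counts in DMSO at 24 h and 0, 1 and 1 in NXP800 (edgeR without the filter, adjusted p = 0.000312). *SFRP2* had 2, 1 and 0 counts in DMSO at 24 h and 11, 11 and 4 in NXP800 (adjusted p = 0.000845 in that fit). *SP5* had 5, 4 and 8 counts in DMSO at 6 h and 1, 0 and 1 in NXP800 (adjusted p = 0.00419 in that fit), whereas at 24 h its groups overlapped, with 5 to 16 counts against 6 to 12. For the other 16 genes a response at either time was not detectable at this depth.

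The genes that fell more than 2-fold at both times were *LRP5*, *TCF7L1*, *LGR4* and *FRZB*. To show what stands before the starts of genes that moved together, the 250 bases upstream of each are given here 5′ to 3′ on the coding strand, together with those of *SP5*, a textbook β-catenin target, from the RefSeq promoter table of GRCh38.p14. Capitals mark CTTTGAT, the core of a TCF/LEF site, which was searched on both strands in windows of 250 bases before to 50 bases after each start.

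LRP5 (chr11:68312341-68312590, plus strand): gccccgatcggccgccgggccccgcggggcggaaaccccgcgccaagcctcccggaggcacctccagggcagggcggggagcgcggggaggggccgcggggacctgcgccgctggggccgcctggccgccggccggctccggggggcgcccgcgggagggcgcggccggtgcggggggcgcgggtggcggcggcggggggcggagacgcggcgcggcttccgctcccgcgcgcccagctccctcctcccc
TCF7L1 (chr2:85133142-85133391, plus strand): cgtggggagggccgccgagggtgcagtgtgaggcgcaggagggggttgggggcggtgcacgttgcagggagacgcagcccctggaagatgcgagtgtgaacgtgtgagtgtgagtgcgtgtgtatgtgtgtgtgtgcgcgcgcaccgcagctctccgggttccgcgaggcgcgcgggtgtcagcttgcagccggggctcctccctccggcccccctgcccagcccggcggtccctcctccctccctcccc
LGR4 (chr11:27472791-27473040, minus strand): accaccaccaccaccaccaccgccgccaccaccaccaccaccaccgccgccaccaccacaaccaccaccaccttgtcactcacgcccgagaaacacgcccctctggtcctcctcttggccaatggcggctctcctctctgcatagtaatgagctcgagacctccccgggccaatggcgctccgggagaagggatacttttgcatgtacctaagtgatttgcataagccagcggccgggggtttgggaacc
FRZB (chr2:182866638-182866887, minus strand): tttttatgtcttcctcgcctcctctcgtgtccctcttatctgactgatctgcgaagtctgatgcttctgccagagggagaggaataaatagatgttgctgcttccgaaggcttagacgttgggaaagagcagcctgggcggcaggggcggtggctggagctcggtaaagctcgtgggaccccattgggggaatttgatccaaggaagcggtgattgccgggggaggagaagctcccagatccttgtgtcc
SP5 (chr2:170715087-170715336, plus strand): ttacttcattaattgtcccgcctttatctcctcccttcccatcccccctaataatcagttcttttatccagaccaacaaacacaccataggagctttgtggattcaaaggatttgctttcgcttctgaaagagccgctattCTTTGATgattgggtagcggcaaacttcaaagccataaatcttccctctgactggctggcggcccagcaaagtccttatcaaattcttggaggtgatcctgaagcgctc

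The core was found in 919 of the 35116 promoters of that table (2.62%) and in 1 of the 42 WNT genes with an entry (2.38%). The one match, in *SP5*, lay at bases -109 to -103 from the start in the sense orientation. TTGCATC, a core found in C/EBP-ATF composite sites and searched in the same way, was in 842 promoters (2.40%) and in 0 of the 42. The start used for *LRP5* lies inside the RefSeq gene, which spans chr11:68298412-68449275. GC content of the printed windows ran from 45.6% in *SP5* to 87.2% in *LRP5*, with 72% in *TCF7L1*, 62% in *LGR4* and 55.6% in *FRZB*.

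Levels between genes were compared as CPM (counts relative to the TMM-scaled library size) per kb of the canonical transcript. In DMSO at 6 h the most abundant members were *CTNNB1* with 104 ± 3.56 CPM per kb (SD, n = 3), *DKK1* with 85.3 ± 2.41, *SFRP1* with 57.8 ± 1.57 and *LRP5* with 54.6 ± 4.86, of which the last 2 lay within their spread of each other. Far below came *RYK* with 28.7 ± 1.54 CPM per kb and *FZD7*, the most abundant Frizzled, with 21.1 ± 0.889. *WNT5B* was the most abundant ligand with 16.8 ± 0.724 CPM per kb, and *WNT7B* followed with 14.6 ± 0.703. In NXP800 *DKK1* stood first at both times, with 137 ± 22.7 CPM per kb at 6 h and 113 ± 23.0 at 24 h, the latter within its spread of the 100 ± 8.79 of *CTNNB1*. *SFRP1* went from rank 4 of 40 in DMSO at 24 h (63.5 ± 3.48 CPM per kb) to rank 7 in NXP800 (20.3 ± 0.254).

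**Figure D2:**
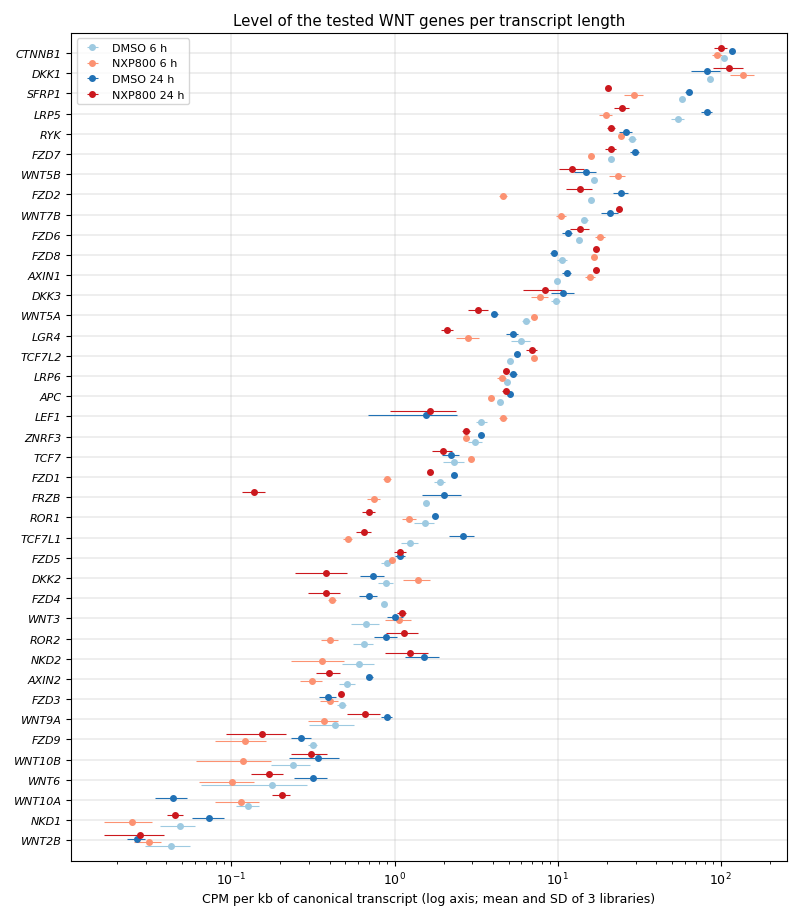
Level of each tested WNT gene in CPM per kb of canonical transcript (log axis, mean and SD of 3 libraries) in the 4 groups, ordered by DMSO at 6 h. The NXP800 points of *SFRP1*, *LRP5*, *FZD2*, *LGR4*, *TCF7L1* and *FRZB* lie to the left of the DMSO points of the same time, whereas those of *DKK1*, *FZD8* and *AXIN1* lie to the right.

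Among the ligands, 9 of 19 were tested. Of these, 3 were called at 6 h (33.3%, against 52.8% of all genes) and 2 at 24 h (22.2% against 56.0%), whereas with the replicate block 5 were called at 6 h (55.6% against 62.3%) and 6 at 24 h (66.7% against 65.2%). At 6 h *WNT3* and *WNT5B* rose and *WNT7B* fell, and at 24 h *WNT5A* fell. The 24 h counts of both fits also include *WNT10A* as higher. It entered the test only through NXP800 at 24 h, where it is high, so its call is no support. *WNT3*, a ligand of the β-catenin branch, had 2.34, 1.73 and 2.55 CPM in the DMSO libraries at 6 h and 3.44, 2.94 and 4.18 CPM with NXP800. All 3 treated libraries were above all controls, and the log2 fold change was 0.67 ± 0.18 (SE, adjusted p = 0.00464). At 24 h its values overlapped, with 3.71, 3.26 and 2.99 CPM in DMSO and 3.76, 3.83 and 3.38 CPM in NXP800 (log2 fold change 0.14 ± 0.17, adjusted p = 0.512).

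*WNT5B*, a ligand mostly studied in β-catenin-independent signalling, had 36.7, 39.4 and 36.5 CPM in DMSO at 6 h against 52.8, 57.7 and 45.9 CPM in NXP800. The groups did not overlap, and the rise was 0.47 ± 0.12 on the log2 scale (adjusted p = 0.00357). At 24 h the DMSO libraries had 29.3, 31.4 and 39.2 CPM and the NXP800 libraries 22.98, 27.1 and 32.6 CPM. The groups overlapped, although each treated library was below the DMSO library of its replicate number. The log2 fold change of -0.27 ± 0.12 did not pass the test (adjusted p = 0.0723), but it did with the replicate number as a block (adjusted p = 0.000720, within 0.000720 to 0.364 over 19 alternatives). The related *WNT5A* gave 0.16 ± 0.088 at 6 h (adjusted p = 0.142, 0.0464 with the block, 0.0232 to 0.338 over 19 alternatives), against -0.32 ± 0.093 at 24 h (adjusted p = 0.00742). Its fall at 24 h was not called under scaling by library size alone (adjusted p = 0.0595, 0.000909 to 0.0595 over 19 alternatives).

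*WNT7B*, which acts in part through β-catenin, had 54.7, 60.2 and 58.1 CPM in DMSO at 6 h and 38.9, 40.6 and 44.5 CPM in NXP800. Every treated library was below every control (log2 fold change -0.48 ± 0.082, adjusted p = 0.000133). After 24 h the DMSO libraries had 84.8, 72.3 and 91.7 CPM and the treated ones 95.00, 89.9 and 96.6 CPM, and one treated library lay below the highest control. The value of 0.18 ± 0.080 was short of the threshold (adjusted p = 0.0697), but passed it with the replicate block (adjusted p = 0.00662, 0.00662 to 0.360 over 19 alternatives).

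*WNT10A*, best known from hair and tooth development, was near the lower limit of detection. It had 7 to 9 counts per library in DMSO and 5 to 9 in NXP800 at 6 h (0.285, 0.284 and 0.213 against 0.154, 0.275 and 0.276 CPM), and these overlapped. At 24 h it had 2 to 3 counts in DMSO (0.100, 0.0673 and 0.103 CPM) and 12 to 15 in NXP800 (0.396, 0.376 and 0.479 CPM), with no overlap. The fitted log2 fold change was 2.16 ± 0.41 (adjusted p = 0.000326). It was also the 1 gene of the 40 that passed the filter on low counts (3 libraries with at least 0.319 CPM) through a single group, NXP800 at 24 h, so it entered the test only because it was high there and that p is no support. In the fit without the filter the value was 2.18 (adjusted p = 0.000537, 0.000212 to 0.00572 over 18 alternatives). The ratio of the summed counts, 39 against 8, was 4.63 after scaling, with an exact (Clopper-Pearson) 95% interval of 2.13 to 11.5 for counting error only. Its neighbour *WNT6* on chromosome 2, whose annotated end runs into the *WNT10A* span, was at -0.90 ± 0.41 at 24 h and not called (adjusted p = 0.0749, 0.0351 with the block, 0.0351 to 0.210 over 18 alternatives).

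The other low or weakly moving ligands were not called at either time. *WNT10B*, an osteogenic ligand, gave -1.01 ± 0.42 at 6 h on 4 to 21 counts per library (adjusted p = 0.0503, 0.0138 with the block, 0.0138 to 0.207 over 18 alternatives). *WNT9A*, a ligand of joint formation, gave -0.43 ± 0.21 at 24 h (adjusted p = 0.0926, 0.0143 with the block, 0.0143 to 0.283 over 19 alternatives). *WNT2B* gave -0.45 ± 0.35 at 6 h and 0.08 ± 0.40 at 24 h, with adjusted p = 0.291 and 0.880.

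Of the Frizzled receptors, 9 of 10 were tested. At 6 h *FZD1*, *FZD2*, *FZD4*, *FZD7* and *FZD9* fell and *FZD6* and *FZD8* rose. At 24 h *FZD1*, *FZD2*, *FZD4* and *FZD7* fell and the same 2 rose. *FZD2*, a receptor used by both branches of the pathway, changed most at 6 h. Its DMSO libraries had 59.7, 61.6 and 58.8 CPM and its NXP800 libraries 16.7, 17.3 and 18.7 CPM, far apart with little spread, which is 3.42-fold lower (log2 fold change -1.77 ± 0.11, adjusted p = 2.99e-09). The values at 24 h were 84.5, 87.9 and 103 CPM in DMSO and 46.2, 46.4 and 62.7 CPM in NXP800. The groups stayed apart, and the fall was smaller at -0.83 ± 0.10 (adjusted p = 4.71e-06).

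*FZD1*, a receptor of the β-catenin branch, had 13.02, 14.00 and 12.03 CPM in DMSO at 6 h and 5.90, 6.58 and 6.14 CPM in NXP800. Later, at 24 h, the values were 16.8, 15.7 and 15.6 CPM against 11.7, 11.00 and 11.6 CPM. Treated libraries were below controls at both times, with log2 fold changes of -1.07 ± 0.094 (adjusted p = 1.37e-07) and -0.49 ± 0.090 (adjusted p = 0.000222). *FZD4*, the receptor of the ligand norrin in retinal vessels, had 6.40, 6.62 and 6.17 CPM in DMSO and 2.89, 3.21 and 3.07 CPM in NXP800 at 6 h. After 24 h it had 4.95, 4.57 and 5.84 CPM against 2.58, 2.32 and 3.51 CPM. It was lower in every treated library, with -1.06 ± 0.15 at 6 h (adjusted p = 2.09e-05), against -0.87 ± 0.16 at 24 h (adjusted p = 0.000177). Of the bases in its annotated exons (all transcripts merged), 18.9% overlap *PRSS23* on the opposite strand. The strand setting of the counting is not given in the sources used here.

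*FZD9*, a Frizzled studied in bone formation, was low, with 0.792, 0.694 and 0.729 CPM in DMSO at 6 h and 0.215, 0.245 and 0.399 CPM in NXP800, on 7 to 25 counts. The groups did not overlap (log2 fold change -1.35 ± 0.33, adjusted p = 0.00242). In the 24 h libraries the controls had 0.535, 0.706 and 0.652 CPM and the treated libraries 0.363, 0.219 and 0.511 CPM. These values were apart only after scaling, since the lowest control and the highest treated library had 16 counts each. The value of -0.79 ± 0.33 missed the threshold (adjusted p = 0.0507) and passed it with the replicate block (adjusted p = 0.0469, 0.0190 to 0.231 over 18 alternatives). *FZD7*, the most abundant Frizzled in DMSO at 6 h, fell by 0.39 ± 0.069 and then 0.48 ± 0.069 on the log2 scale, with adjusted p = 0.000200 and 1.90e-05.

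*FZD8*, whose ligand-binding domain is the model for how a WNT protein is held, rose at both times. It had 40.7, 46.4 and 41.7 CPM in DMSO and 67.3, 65.6 and 68.7 CPM in NXP800 at 6 h, and 37.3, 37.1 and 40.2 CPM against 68.1, 71.2 and 67.99 CPM at 24 h. The treated libraries were tightly grouped above the controls, with log2 fold changes of 0.65 ± 0.065 (adjusted p = 5.44e-07) and 0.86 ± 0.065 (adjusted p = 1.78e-08). *FZD6*, a receptor of planar cell polarity, gave 0.44 ± 0.087 and 0.25 ± 0.088 (adjusted p = 0.000535 and 0.0235). The second call was lost without DMSO replicate 3 or NXP800 replicate 2 at 24 h (adjusted p = 0.104 for each, 0.000951 to 0.104 over 19 alternatives). *FZD3* and *FZD5* were not called, with -0.24 ± 0.13 and 0.10 ± 0.11 at 6 h and 0.27 ± 0.13 and 0.00 ± 0.11 at 24 h (adjusted p = 0.118, 0.476, 0.0828 and 0.980). With the block *FZD3* passed at both times (adjusted p = 0.0416 and 0.0273, within 0.0416 to 0.407 and 0.0218 to 0.303 over 19 alternatives each).

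Of the 5 co-receptors 4 fell at 6 h (80.0%, against 27.8% of all genes lower) and 3 at 24 h (60.0% against 28.6%). These shares rest on 5 genes and were not tested against those of all genes. The 6 h calls of *ROR1* and *RYK* were lost in part of the alternatives, as given below. *ROR2* was not called at 24 h but was higher there with the replicate block, with library size alone and without DMSO replicate 3 or NXP800 replicate 2. *LRP5*, the co-receptor whose loss lowers bone mass in people, had 277, 310.3 and 261 CPM in DMSO at 6 h and 98.01, 113 and 96.3 CPM in NXP800. After 24 h it had 388, 436 and 453 CPM against 130.2, 115 and 142 CPM. The lowest control was more than 2-fold above the highest treated library at both times. The fall was 2.76-fold at 6 h (log2 fold change -1.47 ± 0.093, adjusted p = 3.70e-09) and 3.30-fold at 24 h (-1.72 ± 0.093, adjusted p = 4.32e-10). Its homologue *LRP6* was at -0.11 ± 0.067 and -0.15 ± 0.067 and was not called (adjusted p = 0.187 and 0.0722), and at 24 h it passed with the replicate block (adjusted p = 0.0186, 0.0186 to 0.527 over 19 alternatives).

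*ROR1*, a receptor tyrosine kinase-like protein that binds WNT5A, had 8.33, 10.5 and 8.26 CPM in DMSO at 6 h and 7.31, 7.89 and 6.42 CPM in NXP800. The groups were close but apart, and the log2 fold change of -0.33 ± 0.12 was called (adjusted p = 0.0322). That call was lost in 5 of 19 alternatives, where adjusted p ran from 0.00557 to 0.196: with DESeq2, with only the libraries of the time point, and without DMSO replicate 2 (-0.20), NXP800 replicate 1 (-0.33) or NXP800 replicate 3 (-0.25). At 24 h the DMSO libraries had 10.2, 10.7 and 10.1 CPM and the treated ones 4.06, 3.70 and 4.44 CPM. These were well separated, with a 2.54-fold fall (-1.34 ± 0.13, adjusted p = 2.14e-07). *ROR2*, the second receptor of this kind, had 3.01, 2.27 and 2.79 CPM against 1.44, 1.77 and 1.81 CPM at 6 h. All treated libraries were below the controls (-0.68 ± 0.20, adjusted p = 0.00949). In the later libraries it had 3.45, 3.26 and 4.39 CPM in DMSO and 4.42, 3.89 and 5.93 CPM in NXP800, and the groups overlapped (0.36 ± 0.18, adjusted p = 0.100). With the block that rise passed (adjusted p = 0.0229, 0.0229 to 0.452 over 19 alternatives). *RYK*, an atypical WNT receptor with an inactive kinase domain, fell by 0.24 ± 0.072 at 6 h (adjusted p = 0.0107) and by 0.30 ± 0.072 later (adjusted p = 0.00188). The 6 h call was lost without DMSO replicate 2 (adjusted p = 0.0588, 0.000268 to 0.0588 over 19 alternatives).

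*LGR4*, the R-spondin receptor that keeps Frizzled proteins at the surface by restraining the ligases ZNRF3 and RNF43, had 29.8, 36.1 and 28.3 CPM in DMSO at 6 h and 12.3, 16.7 and 15.8 CPM in NXP800. By 24 h they were 25.2, 29.96 and 28.2 CPM against 10.2, 12.01 and 10.98 CPM. Every treated library was below every control of its time. The falls were 2.10-fold (-1.07 ± 0.12, adjusted p = 1.61e-06) and 2.51-fold (-1.33 ± 0.12, adjusted p = 1.64e-07).

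**Figure D3:**
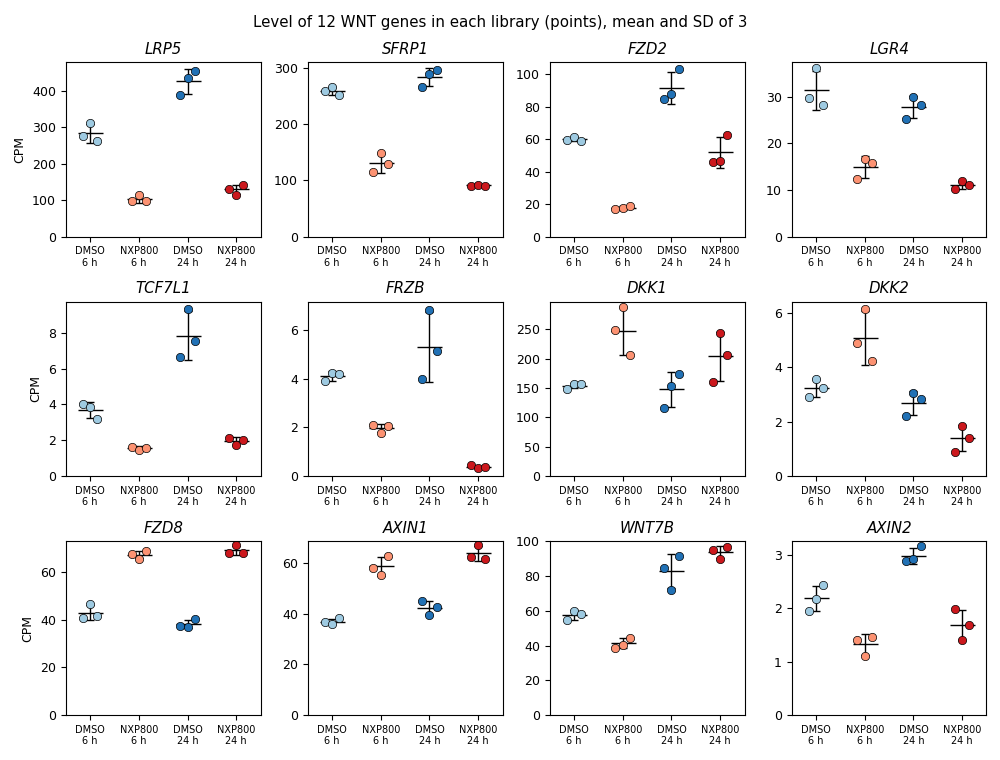
CPM of 12 WNT genes in every library (points), with the mean and SD of 3 libraries per group, each panel on its own axis from 0. Treated and control libraries of a time do not overlap in *LRP5*, *SFRP1*, *FZD2*, *LGR4*, *TCF7L1*, *FRZB*, *DKK2*, *FZD8*, *AXIN1* and *AXIN2*, and overlap at 24 h in *DKK1* and *WNT7B*.

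The secreted antagonists moved in both directions. *FRZB* and *SFRP1*, which bind WNT proteins through a Frizzled-like domain, fell at both times, *DKK1* rose at both times, and *DKK2* rose and then fell. *FRZB* had 3.90, 4.26 and 4.22 CPM in DMSO at 6 h and 2.09, 1.77 and 2.06 CPM in NXP800, a 2.09-fold fall without overlap (-1.06 ± 0.19, adjusted p = 0.000175). At 24 h the controls had 3.98, 6.86 and 5.15 CPM and the treated libraries 0.429, 0.314 and 0.351 CPM, or 10 to 13 counts. That was the lowest log2 fold change of any WNT gene tested, -3.86 ± 0.24 or 14.5-fold lower (adjusted p = 1.93e-09). *SFRP1* had 258, 265 and 251 CPM in DMSO and 115, 149 and 128 CPM in NXP800 at 6 h. The 24 h values were 266, 288 and 296 CPM against 90.1, 91.9 and 89.8 CPM. The treated libraries were far below the controls at both times, by 1.97-fold (-0.98 ± 0.078, adjusted p = 4.15e-08) and 3.12-fold (-1.64 ± 0.079, adjusted p = 1.48e-10).

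*DKK1*, the classical inhibitor of LRP5 and LRP6, had 149, 156 and 157 CPM in DMSO at 6 h and 249, 288 and 206 CPM in NXP800. All treated libraries were above the controls, with more spread among them (0.69 ± 0.15, adjusted p = 0.00105). At 24 h it had 115, 154 and 174 CPM in DMSO and 161, 244 and 207 CPM in NXP800, which overlapped, and each treated library exceeded the control of its replicate number. The rise of 0.46 ± 0.15 was called (adjusted p = 0.0143), but not without DMSO replicate 1 (0.31, adjusted p = 0.0762) or NXP800 replicate 2 (0.34, adjusted p = 0.0712), within 2.44e-09 to 0.0762 over 19 alternatives. *PRKG1-AS1* covers 10.2% of its annotated exons (all transcripts merged) on the opposite strand.

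*DKK2*, which also binds LRP5 and LRP6, was the one WNT gene called in opposite directions. It had 2.91, 3.56 and 3.22 CPM in DMSO at 6 h and 4.88, 6.15 and 4.21 CPM in NXP800. The corresponding 24 h values were 2.21, 3.06 and 2.82 CPM against 0.892, 1.85 and 1.40 CPM. The treated libraries were all above the controls at 6 h and all below them at 24 h, with log2 fold changes of 0.65 ± 0.20 (adjusted p = 0.0123) and -0.96 ± 0.24 (adjusted p = 0.00248). The rise at 6 h was not called without DMSO replicate 1 (0.58, adjusted p = 0.0510) or NXP800 replicate 2 (0.49, adjusted p = 0.0773), with 0.000307 to 0.0773 over 19 alternatives. *DKK3*, a divergent member of the family, gave -0.32 ± 0.16 and -0.35 ± 0.16 and was not called (adjusted p = 0.101 and 0.0660). It passed at both times with the replicate block (adjusted p = 0.000812 and 0.000222, within 0.000812 to 0.312 and 0.000222 to 0.297 over 19 alternatives each). Of its annotated exons (all transcripts merged) 47.5% overlap *USP47* on the other strand.

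In the destruction complex, the scaffold *AXIN1* rose at both times. Its libraries had 36.5, 35.97 and 38.1 CPM in DMSO and 57.9, 55.2 and 62.7 CPM in NXP800 at 6 h, and 44.96, 39.4 and 42.6 CPM against 62.4, 66.97 and 61.6 CPM at 24 h. The groups were apart at both times, with log2 fold changes of 0.67 ± 0.070 (adjusted p = 8.91e-07) and 0.59 ± 0.070 (adjusted p = 2.70e-06). *APC*, the tumour suppressor that binds β-catenin in the complex, gave -0.19 ± 0.063 at 6 h (adjusted p = 0.0182), against -0.08 ± 0.062 at 24 h (adjusted p = 0.304). The first call was lost in 3 of 19 alternatives (adjusted p from 0.00549 to 0.0808): without the filter on low counts, without DMSO replicate 3 (-0.16) and without NXP800 replicate 3 (-0.17). *CTNNB1*, which encodes β-catenin, was first or second per transcript length in every group. Its libraries held 331 to 392 CPM at 6 h and 345 to 444 CPM at 24 h, and it gave -0.13 ± 0.072 at 6 h (adjusted p = 0.151, 0.0297 with the block, 0.0297 to 0.382 over 19 alternatives), against -0.23 ± 0.072 at 24 h (adjusted p = 0.0122). The latter call was lost under scaling by library size alone (-0.14), without NXP800 replicate 2 (-0.16) and without NXP800 replicate 3 (-0.20), where adjusted p ran up to 0.0835, and its lowest value over 19 alternatives was 0.000450.

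The 4 TCF and LEF factors did not move together. *TCF7L1*, the member best known as a repressor, fell in every treated library. It had 4.02, 3.85 and 3.19 CPM in DMSO and 1.63, 1.44 and 1.57 CPM in NXP800 at 6 h, which is 2.38-fold lower (-1.25 ± 0.17, adjusted p = 1.45e-05). At 24 h it had 6.66, 9.35 and 7.52 CPM against 2.11, 1.72 and 2.01 CPM, a 4.02-fold fall (-2.01 ± 0.16, adjusted p = 3.22e-08). The treated level was not lower at 24 h than at 6 h (mean 1.95 against 1.54 CPM), whereas the DMSO level was higher (7.84 against 3.69 CPM). *TCF7L2*, the main intestinal member, rose by 0.50 ± 0.074 and 0.31 ± 0.074 (adjusted p = 3.50e-05 and 0.00232). *TCF7*, best known from T cells, gave 0.36 ± 0.13 at 6 h (adjusted p = 0.0302), against -0.17 ± 0.13 at 24 h (adjusted p = 0.304). Its 6 h call was lost in 4 of 19 alternatives (adjusted p from 0.00828 to 0.149), without DMSO replicate 3 (0.24) and without NXP800 replicate 1, 2 or 3.

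*LEF1* was not called at 6 h in the main fit or in 16 of 19 alternatives, and the cause was not tested. It had 13.3, 11.7 and 11.6 CPM in DMSO at 6 h and 17.5, 15.5 and 16.7 CPM in NXP800, without overlap, yet its log2 fold change of 0.44 ± 0.27 was not called (adjusted p = 0.177). At 24 h replicate 1 stood high in both groups, with 9.13 CPM in DMSO and 8.85 CPM in NXP800, whereas the other libraries had 4.37 and 3.26 CPM in DMSO and 4.92 and 3.99 CPM in NXP800. The model used 1 estimate of spread per gene for the 4 groups. With the replicate block the 6 h rise was called (adjusted p = 8.17e-05), as it was with only the 6 h libraries (adjusted p = 0.000677) and without the filter on low counts (adjusted p = 0.000950), within 8.17e-05 to 0.387 over 19 alternatives. The value at 24 h was 0.08 ± 0.30 (adjusted p = 0.843), and without DMSO replicate 1 it became 0.63 (adjusted p = 0.0475, 0.0475 to 0.887 over 19 alternatives).

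**Figure D4:**
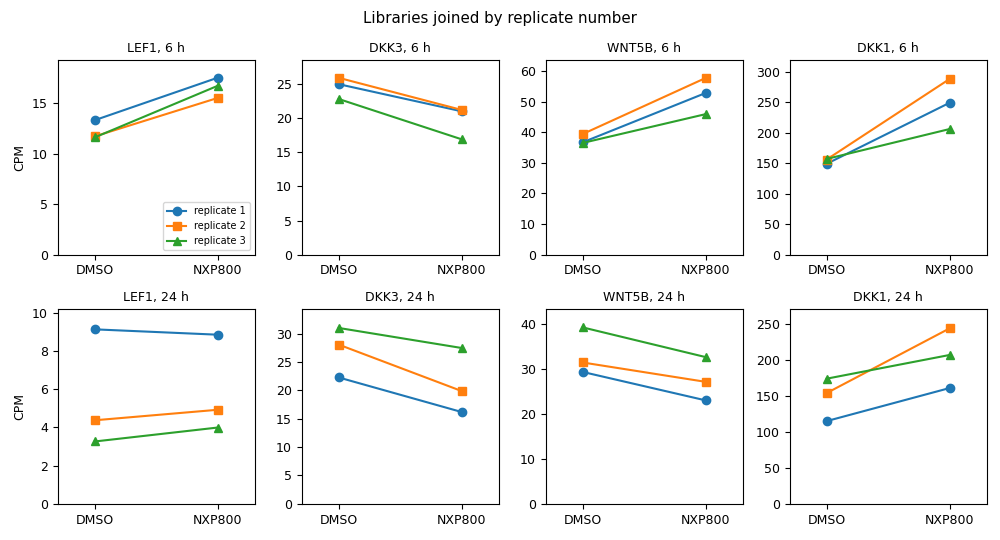
CPM of *LEF1*, *DKK3*, *WNT5B* and *DKK1* in DMSO and NXP800, with lines joining the libraries of the same replicate number at 6 h (top) and 24 h (bottom). At 24 h *LEF1* replicate 1 is high in both groups (9.13 and 8.85 CPM), and the 3 lines of *DKK3*, *WNT5B* and *DKK1* run in one direction although the groups overlap.

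Of the feedback genes that β-catenin commonly induces, 4 were tested and none was called higher, against 25.0% of all genes at 6 h and 27.5% at 24 h. At 6 h 2 were lower (50.0%, against 27.8% of all genes), and at 24 h 3 were (75.0% against 28.6%). A set of 4 genes is too few to tell apart from these shares. *AXIN2*, its standard reporter gene, had 1.96, 2.18 and 2.43 CPM in DMSO at 6 h and 1.41, 1.10 and 1.47 CPM in NXP800. Its values at 24 h were 2.88, 2.93 and 3.16 CPM against 1.98, 1.41 and 1.69 CPM. Treated libraries were below controls at both times, with -0.72 ± 0.18 (adjusted p = 0.00374) and -0.82 ± 0.18 (adjusted p = 0.000903). An unnamed gene on the same strand shares 25.3% of its annotated exons (all transcripts merged). *NKD1*, which binds Dishevelled, had 0.792, 1.04 and 0.638 CPM against 0.276, 0.551 and 0.430 CPM at 6 h, and 1.47, 0.942 and 1.34 CPM against 0.859, 0.690 and 0.766 CPM at 24 h. Its groups did not overlap, on 9 to 44 counts per library (-0.97 ± 0.31, adjusted p = 0.0145, and -0.70 ± 0.27, adjusted p = 0.0369). The 6 h call was lost without DMSO replicate 2 (-0.76) or NXP800 replicate 1 (-0.74), where adjusted p rose to 0.0782 from a lowest value of 0.00547 over 18 alternatives. The 24 h call was lost in 7 of 18 alternatives, with adjusted p from 0.0144 to 0.136: library size alone, no filter on low counts, DESeq2, and the absence of DMSO replicate 1 (-0.56), DMSO replicate 3 (-0.65), NXP800 replicate 2 (-0.59) or NXP800 replicate 3 (-0.69).

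*NKD2*, its homologue, gave -0.76 ± 0.31 at 6 h and -0.30 ± 0.25 at 24 h, with 0.0534 and 0.323 as adjusted p, and the first passed with the block (adjusted p = 0.0112, 0.00986 to 0.219 over 19 alternatives). *ZNRF3*, an E3 ligase that removes Frizzled receptors, gave -0.19 ± 0.086 at 6 h (adjusted p = 0.0728, 0.0342 with the block, 0.0178 to 0.285 over 19 alternatives). It was lower at 24 h, with -0.31 ± 0.086 (adjusted p = 0.00530).

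The response differed between the times in 13 of the 40 genes (32.5%, against 25.8% of all genes tested), of which 6 were higher and 7 lower in the 24 h response, and 5 of them by more than 2-fold (12.5% against 6.68%). Without *WNT10A* it was 12 of 39 (30.8%), and 4 by more than 2-fold (10.3%). With the replicate block 6 were higher and 11 lower (42.5% against 39.3% of all genes). *FRZB* had the largest difference, since its response at 24 h was lower, at -2.80 ± 0.32 (log2, adjusted p = 1.30e-05). The 24 h response was also lower for *DKK2* (-1.61 ± 0.31, adjusted p = 0.00133), *ROR1* (-1.02 ± 0.18, adjusted p = 0.000530), *TCF7L1* (-0.75 ± 0.24, adjusted p = 0.0280), *WNT5B* (-0.75 ± 0.17, adjusted p = 0.00492), *SFRP1* (-0.66 ± 0.11, adjusted p = 0.000362) and *WNT5A* (-0.48 ± 0.13, adjusted p = 0.0115). The call of *TCF7L1* was lost without DMSO replicate 3, NXP800 replicate 1 or NXP800 replicate 3 at 6 h, or replicate 2 of either group at 24 h, with adjusted p between 0.0525 and 0.0726 there and 0.0134 as the lowest of 18 alternatives.

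A higher response at 24 h was called for 6 genes, or 5 without *WNT10A*. In *WNT10A* the difference was 2.30 ± 0.56 (adjusted p = 0.00671), on the low counts given above. It entered the test only through NXP800 at 24 h, where it is high, so that p is no support. *ROR2* differed by 1.04 ± 0.27 (adjusted p = 0.00999) and *WNT7B* by 0.66 ± 0.11 (adjusted p = 0.000602), both of which were lower under NXP800 at 6 h and not called at 24 h. *FZD2* (0.95 ± 0.15, adjusted p = 0.000259) and *FZD1* (0.58 ± 0.13, adjusted p = 0.00394) were lower at both times and less so at 24 h. *FZD3* differed by 0.51 ± 0.18 (adjusted p = 0.0454), a call lost in 12 of 18 alternatives (adjusted p from 0.00822 to 0.115), 9 of them the absence of 1 library (any but NXP800 replicate 1 at 6 h and DMSO replicates 1 and 3 at 24 h). The differences of *LRP5* (-0.25 ± 0.13, adjusted p = 0.163), *WNT3* (-0.53 ± 0.25, adjusted p = 0.129), *TCF7* (-0.52 ± 0.19, just short of the threshold) and *LEF1* (-0.36 ± 0.40, adjusted p = 0.551) passed only with the block or in part of the alternatives. With the block their adjusted p were 0.0178, 0.0288, 0.0144 and 0.0440, and their highest over 18 alternatives were 0.366, 0.289, 0.129 and 0.832.

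**Figure D5:**
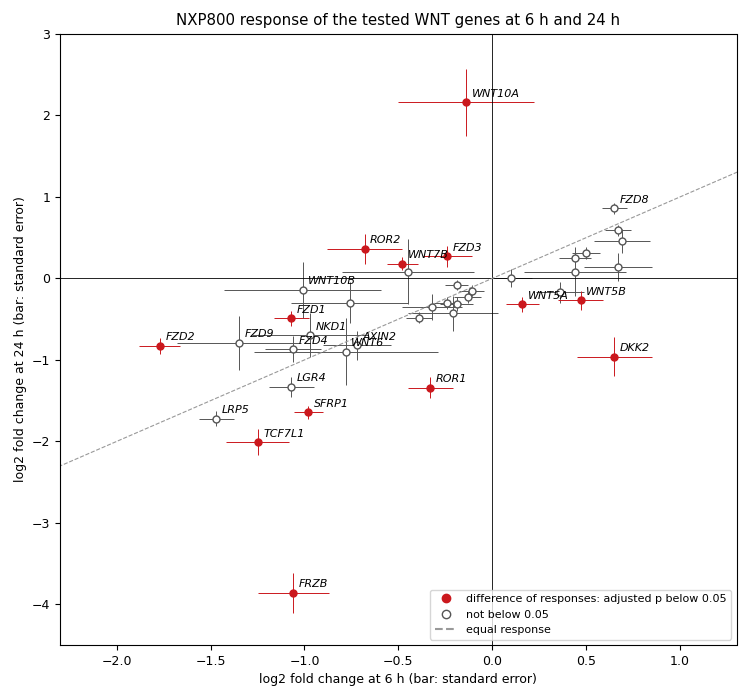
Log2 fold change of NXP800 against DMSO at 24 h (y axis) against that at 6 h (x axis) for the 40 tested WNT genes, with standard errors, red points for a difference of the responses at an adjusted p below 0.05, and a dashed line of equal response. *FRZB* lies farthest below the line, *WNT10A* farthest above it, and *DKK2* is to the right of 0 at 6 h and below 0 at 24 h.

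Genes of the same pathway outside the 59 were taken from a list of 71, of which 65 were tested. At 6 h 17 were higher and 22 lower (60.0% called), and at 24 h 22 were higher and 22 lower (67.7%), against the backgrounds of 52.8% and 56.0%. The higher genes and the share at 24 h include *LGR6*, which entered the test through NXP800 libraries alone. Their median log2 fold changes were -0.01 and 0.01. *MYC*, a growth regulator and often cited β-catenin target, rose from 21.4 ± 3.90 to 110.0 ± 21.1 CPM at 6 h (SD, n = 3, log2 fold change 2.36 ± 0.14, adjusted p = 2.08e-09), and by 1.44 ± 0.14 at 24 h (adjusted p = 3.40e-07). Of the 9 commonly cited β-catenin targets tested in this list, *MYC* included, 2 were higher and 3 lower at 6 h (55.6% called, against 52.8% of all genes). At 24 h 1 was higher and 4 were lower (55.6% against 56.0%). Over all genes 25.0% were higher and 27.8% lower at 6 h, and 27.5% and 28.6% at 24 h. A set of 9 genes is too few to tell apart from these shares. *DACT1*, an antagonist that binds Dishevelled, rose by 1.54 ± 0.21 and 1.41 ± 0.23 (adjusted p = 1.27e-05 and 6.65e-05). *TLE1*, a Groucho co-repressor of TCF factors, and *DAAM1*, a formin of the planar polarity branch, rose by 1.12 ± 0.085 and 1.13 ± 0.16 at 6 h (adjusted p = 2.61e-08 and 2.58e-05).

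Among the falls at 6 h were the polarity genes *CELSR2* (-1.38 ± 0.22, adjusted p = 6.07e-05) and *VANGL1* (-1.24 ± 0.079, adjusted p = 4.16e-09), and *CXXC5* (-1.36 ± 0.11, adjusted p = 6.74e-08) and *CXXC4* (-1.22 ± 0.29, adjusted p = 0.00217), which encode Dishevelled-binding inhibitors. At 24 h the largest falls were those of *CTNNBIP1*, an inhibitor of the contact between β-catenin and TCF (-1.73 ± 0.14, adjusted p = 4.75e-08), the formin *DAAM2* (-1.65 ± 0.15, adjusted p = 1.55e-07), the DKK receptor *KREMEN2* (-1.49 ± 0.29, adjusted p = 0.000341) and *CXXC4* (-1.43 ± 0.33, adjusted p = 0.00148). The R-spondin receptor *LGR6* had 1 to 4 counts per library in DMSO at 24 h and 17 to 26 in NXP800, and NXP800 libraries alone brought it past the filter. Its summed counts of 60 against 9 gave a scaled ratio of 6.33, with an exact 95% interval of 3.12 to 14.5 for counting error only, and the fit without the filter called it (log2 fold change 2.63, adjusted p = 2.04e-06). *CELSR1*, a cadherin of planar polarity, rose by 1.74 ± 0.13 (adjusted p = 1.66e-08) at 24 h, from 34.1 ± 8.79 to 114 ± 12.2 CPM (SD, n = 3). All adjusted p-values of these genes are edgeR values over the 15979 genes tested.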

How the data were processed

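The deposited values were raw counts per gene, which the authors made with fastp 0.20.1, STAR 2.7.5a and htseq-count (HTSeq 0.12.4) on the RefSeq annotation of GRCh38.p14, per the labels and file contents. The strand setting and overlap mode are not given in the sources used here. Counts were analysed with edgeR 4.0.16 in R 4.3.3 (filterByExpr, TMM, quasi-likelihood test, 1 model of 4 groups, Benjamini-Hochberg over 15979 genes), because the methods read here name DESeq2 without a design. SE is the log2 fold change divided by the square root of F. The members, the other pathway genes, the markers and the motifs were chosen with earlier results of these data known. One marker on that list is not reported here. Values per library were given for members with an adjusted p below 0.05 and a log2 change beyond 0.58 in a comparison, and the 4 called genes with the largest change each way at either time were named among the other pathway genes. Smaller changes were named to complete the role groups. The main model did not pair libraries. In the replicate block, an alternative, the replicate numbers, known only from the labels, were taken to pair them. Deviations from the group means correlated over genes (which are not independent) by 0.142 to 0.304 within a number and by 0.0560 at most across numbers. Such deviations cancel within a group, so the values across numbers are tied to those within a number. On simulated counts, 160 of 200 genes altered 2-fold at 6 h were recovered, with 10 other calls among 15631 genes, and 140 of 200 in the difference of the responses, with 16 other calls. Only those 200 genes were altered, and the libraries were drawn independently. In the data 52.8% of genes were called at 6 h and libraries of a replicate number correlated, so these rates do not carry over. Canonical transcripts and shared exons were read from GENCODE, not from the annotation used in counting. Promoter entries were matched by symbol for 42 of the 59 genes. The alternatives were DESeq2 1.42.0 (its size factors or its Wald test), library size alone, the replicate block, each library left out, a fit of the 6 libraries of 1 time, no filter on low counts, and a minimum of 10 counts everywhere.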

Additional observations from a re-analysis of the deposited data

Results flagged for a closer look

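The responses of 13 genes differed between 6 h and 24 h by the test of the difference itself (edgeR). The 24 h response minus the 6 h response, on the log2 scale, was -2.80 for *FRZB*, -1.61 for *DKK2*, -1.02 for *ROR1*, -0.75 for *TCF7L1*, -0.75 for *WNT5B*, -0.66 for *SFRP1* and -0.48 for *WNT5A*. It was 2.30 for *WNT10A*, 1.04 for *ROR2*, 0.95 for *FZD2*, 0.66 for *WNT7B*, 0.58 for *FZD1* and 0.51 for *FZD3*. *WNT10A* entered the test only through NXP800 at 24 h, where it is high, on 2 to 15 counts per library, and without the filter on low counts its difference was 2.32 (adjusted p = 0.0193). *DKK2* is the one whose calls had opposite signs at the 2 times. In *FRZB* and *TCF7L1* the DMSO level at 24 h also had a wider spread than at 6 h, with an SD of 1.45 against 0.199 CPM and of 1.37 against 0.439 CPM. The mean DMSO level of *TCF7L1* was 7.84 CPM at 24 h against 3.69 CPM at 6 h, and its NXP800 level 1.95 against 1.54 CPM. The 2 times differ in reads outside genes, so that time and library set cannot be told apart.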

How the results depend on the processing

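Over the alternatives, 2072 of the recomputed values stayed on their side of the threshold with their direction, 49 fell below it, 68 passed it and 27 changed sign, 23 of the last on leaving out 1 library. No gene changed sign in a comparison in which it was called. Without 1 library in turn, 7 to 9 genes were higher and 16 to 20 lower at 6 h, 6 to 8 higher and 15 to 19 lower at 24 h, and 5 to 6 higher and 6 to 8 lower in the difference of the responses. For the other pathway genes the counts were 17 to 18 higher and 20 to 23 lower at 6 h, and 19 to 26 higher and 21 to 23 lower at 24 h. The replicate block gave 11 lower genes in the difference against 7 without it, and it lost no call. Scaling by library size alone turned *APC* at 24 h to 0.01 and the differences of *DKK3*, *LRP6* and *RYK* to 0.04, 0.04 and 0.01. Without 1 library in turn, values close to 0 changed sign. These ranged from -0.27 to 0.08 for *WNT10A* and -0.39 to 0.07 for *WNT9A* at 6 h, and at 24 h from -0.40 to 0.05 for *WNT10B*, -0.10 to 0.37 for *WNT2B*, -0.05 to 0.09 for *FZD5* and -0.33 to 0.63 for *LEF1*. In the difference they ranged from -0.22 to 0.02 for *AXIN2*, -0.27 to 0.13 for *DKK3*, -0.77 to 0.19 for *LEF1*, -0.08 to 0.01 for *LRP6*, -0.12 to 0.01 for *RYK* and -0.69 to 0.27 for *WNT6*. The cause was not tested. *WNT10A*, *WNT6*, *WNT10B*, *WNT2B*, *FZD9* and *NKD1* had 44 counts or fewer in every library. Other genes were low in single groups, such as *FRZB* with 10 to 13 counts in NXP800 at 24 h. How far counts or the 3 libraries per group limited the precision of single genes was not tested.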
